A study of Mus musculus with 36 samples.

Results

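The lungs of mice given ultrasmall graphene oxide (US) through the nose were followed over 3 sampling days. They made up 9 of the 36 libraries of the series, namely every library whose sample title carries the prefix US, with 3 libraries at each of days 1, 7 and 28. Graphene oxide is a very thin sheet of carbon that carries oxygen groups, and the other libraries came from lungs given larger sheets or the carrier. The animals were female wild-type C57BL/6 mice, a common inbred strain, that received 1 intranasal instillation of 50 μg of the sheets per mouse in 5% dextrose. They were 9 weeks old in the day 1 group, 10 weeks old in the day 7 group and 13 weeks old in the day 28 group. The 9 dextrose lungs (D, 0 μg of sheets, carrier only) had the same strain, sex, days and ages. RNA came from small pieces taken of every lobe, apart from the large airways. The study used more animals than libraries in each group, and no label says which animal a library came from, so the p-values rest on the spread between libraries, part of which may be technical. Age rose with day, and the sources used here do not state the hour of day at which lungs were taken, so neither age nor hour can be told apart from the day after instillation. In tissue pieces, fewer cells of a type and less RNA per cell cannot be told apart.

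A lung that meets particles raises chemokines that draw neutrophils out of the blood, and its lining cells make secreted acute-phase and antimicrobial proteins. Chaperones fold proteins, and their genes are induced when cells carry many unfolded proteins. The circadian clock is a loop in which the activators ARNTL and CLOCK or NPAS2 switch on genes of the PER, CRY and REV-ERB repressors, which in turn switch the activators off. Clock genes in the lung therefore change over the hours of 1 day as well as with inflammation.

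The 9 US libraries held 17479799 to 23808264 counts, so that 1 CPM (the unit of counts scaled to the library total) stood for 17.5 to 23.8 counts, and 16903 of 46078 genes were tested. The lung genes Sftpc, of alveolar type 2 cells, and Scgb1a1, of club cells, were abundant in every US library, with 9941 to 24134 CPM and 21817 to 35824 CPM. A pair of libraries stood apart. Day 1 replicate 1 lay at -58 on the first principal component of the US libraries, which held 40.2% of their variance, while the other 8 lay between -18.0 and 30.2. Its mean level of 14 glucocorticoid-induced genes, as log2(CPM + 0.5) centred on the 9 US libraries, was 1.73, against -0.53 and -0.46 in the other day 1 libraries, and its T cell and NK cell score was -1.49, against 0.00 and -0.33. Day 28 replicate 3 had an interferon score of 1.46, against -0.10 and -0.22 in the other day 28 libraries. Results that rest on either library are given with and without it.

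**Figure D1:**
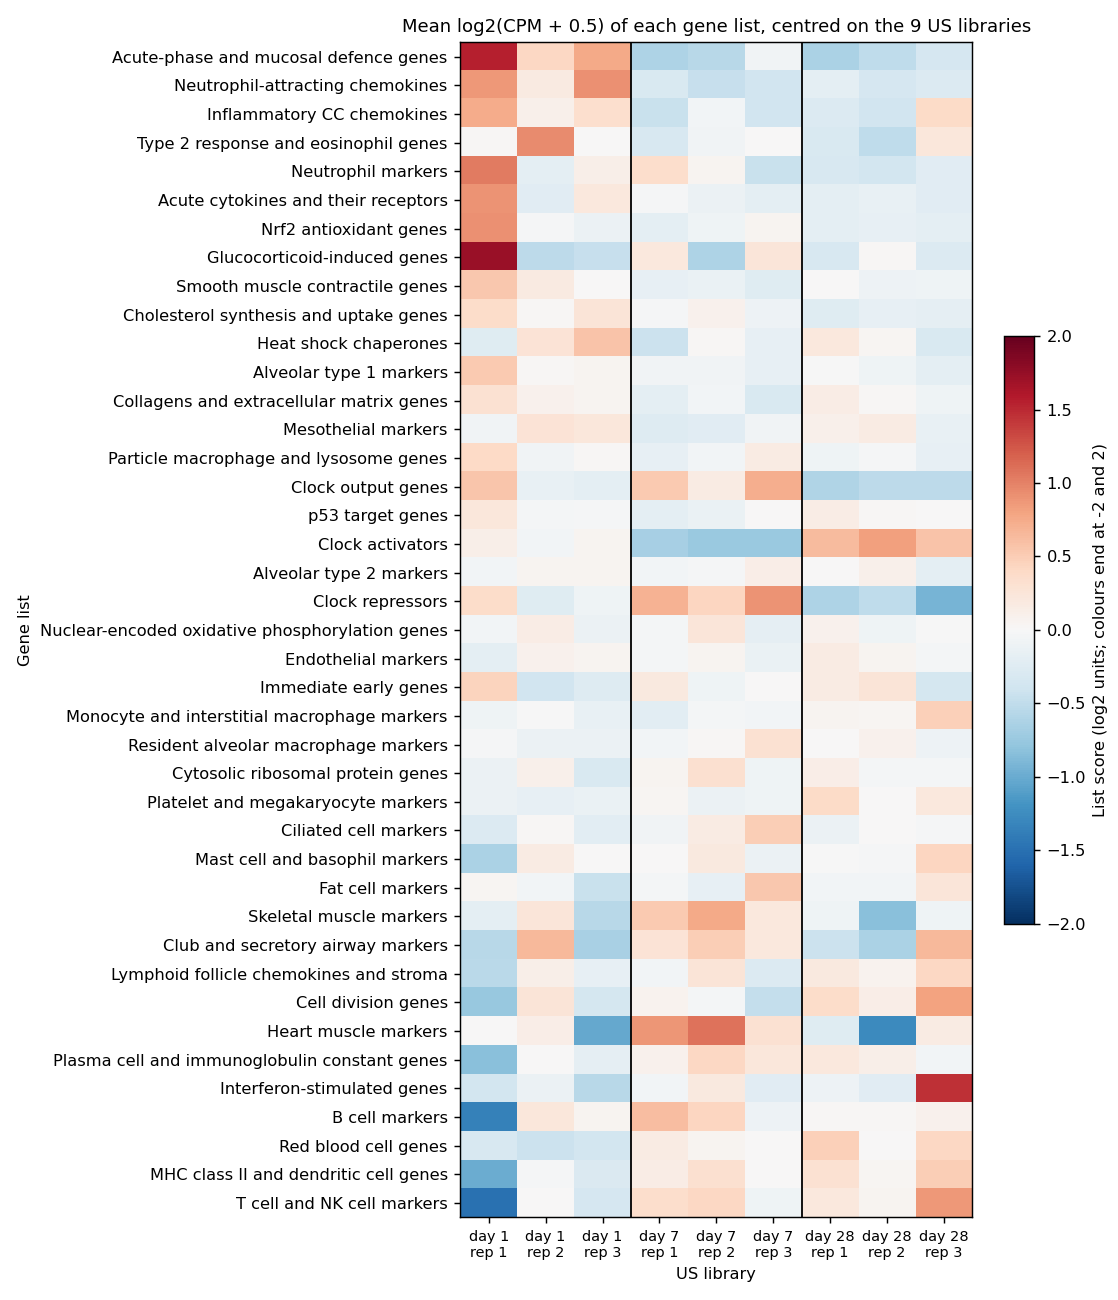
Score of 41 gene lists (rows) in the 9 US libraries (columns, by day and replicate), as mean log2(CPM + 0.5) centred on the 9 libraries, where red is above and blue below their mean and colours end at -2 and 2. Day 1 replicate 1 has the highest glucocorticoid score (1.73) and the lowest T cell and NK cell score (-1.49), day 28 replicate 3 has the highest interferon score (1.46), and the clock activator and repressor scores separate day 7 from day 28.

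In edgeR's quasi-likelihood test with Benjamini-Hochberg adjustment over all 16903 genes at 0.05, 1213 genes differed between day 7 and day 1 (7.18% of those tested), 515 higher at day 7 (3.05%) and 698 lower (4.13%). Day 28 against day 1 gave 296 genes (1.75%), 0.716% of genes higher and 1.04% lower. Day 28 against day 7 gave 150 genes (0.887%), 89 higher (0.527%) and 61 lower (0.361%). Across the 3 days 1050 genes changed (6.21%), and the most frequent order of their fitted levels, in 338 genes, was lowest at day 7, then day 28, then day 1. The next, in 256 genes, was lowest at day 1, then day 28, then day 7. The 3 comparisons share libraries, so their calls are not independent. Counts of called list members below are to be read against these shares of all genes. Single libraries moved these counts. Without day 1 replicate 1 the day 7 against day 1 count was 252, without day 1 replicate 2 it was 2386, without day 1 replicate 3 it was 630, and without day 7 replicate 1 or 2 it was 403 or 344. For day 28 against day 1 it was 13 without day 1 replicate 1, 1228 without day 1 replicate 2, 194 or 34 without day 28 replicate 2 or 3, and 0.705% of genes, against 1.75% with all libraries, without day 28 replicate 1. For day 28 against day 7 it was 96 or 74 without day 28 replicate 1 or 3 and 75 without day 7 replicate 3. Fitted on only the libraries of the days compared, without the spread shared over all 36 libraries, the counts were 33, 2 and 20. With both day 1 replicate 1 and day 28 replicate 3 left out, edgeR called 229 genes between days 7 and 1, 146 between days 28 and 7, and 0 between days 28 and 1, where 1253 had an unadjusted p under 0.05 and DESeq2 called 37. With each of the 9 US libraries left out in turn, the genes named by rule that stayed called every time were Cxcl1, Cxcl3, Cxcl5, Lcn2, Ccl17, Ctla4, Gm16340, Hspa8, Hspd1, Hspa5, Npas2, Arntl, Per3, Nr1d2, Dbp and Cfap43 between days 7 and 1, and Il12b, Cxcl1, Npas2, Nr1d2 and Tef between days 28 and 1. Between days 28 and 7 they were Npas2, Arntl, Per2, Per3, Nr1d1, Nr1d2, Dbp, Tef, Hlf, Avpr1a, Spon2, Rasl11a, Ccna1, Fabp3 and Tex11. The other called genes named by rule for a comparison lost their call there without at least 1 library.

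The first comparison set day 7 against day 1. Genes that draw neutrophils were lower at day 7. Of 9 measured neutrophil-attracting chemokines and receptors, 4 fell at day 7 against day 1 (Cxcl1, Cxcl3, Cxcl5 and Cxcr2), none rose, and the median log2 difference was -1.78, against -0.01 over all genes tested. Cxcl1, Cxcl2 and Cxcl3, which lie close together on chromosome 5, were also the 3 of 8 members in RefSeq's promoter table for GRCm38.p6 whose promoter (250 bases before to 50 after the start) held the NF-kB motif (GGGA, any base, then TTTCC), searched on both strands. The motif was in a promoter of 0.466% of the table's 27025 genes, of 0 of 15 acute-phase genes and of 0 of 9 CC chemokines. A match of letters is a description only. The stretches are shown because the matches stand at a similar distance before each start, at -71 in Cxcl1, -97 in Cxcl2 and -73 in Cxcl3. All are on the plus strand, at chr5:90891134-90891223, chr5:90903762-90903851 and chr5:90785988-90786077, with the motif in capitals.
Cxcl1: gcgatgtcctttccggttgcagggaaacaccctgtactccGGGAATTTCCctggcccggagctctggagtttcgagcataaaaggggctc
Cxcl2: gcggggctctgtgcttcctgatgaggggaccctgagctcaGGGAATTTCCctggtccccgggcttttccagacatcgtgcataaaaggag
Cxcl3: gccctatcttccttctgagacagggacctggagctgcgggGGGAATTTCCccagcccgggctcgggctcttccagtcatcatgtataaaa

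Cxcl1, a chemokine for neutrophils (chr5:90891241-90893115, plus strand, GRCm38), had 0.687, 0.458 and 0.340 CPM in the 3 day 7 lungs, against 7.64, 1.77 and 5.74 CPM in the 3 day 1 lungs. The days did not overlap, and the log2 difference was -3.42 ± 0.60 (SE; adjusted p = 0.00250, edgeR). With day 1 replicate 1 left out it was -2.96 (adjusted p = 0.0150). Cxcl5, made by lung epithelium, had 0.183, 0.629 and 1.07 CPM at day 7, against 10.3, 11.4 and 20.4 CPM at day 1, a log2 difference of -4.56 ± 0.78 (adjusted p = 0.00250, edgeR). Every day 7 lung lay below every day 1 lung by a wide margin, and without day 1 replicate 1 the difference was -4.72 (adjusted p = 0.00262). Cxcl3 had 0.229, 0.400 and 0.0486 CPM at day 7, against 3.04, 0.936 and 2.47 CPM at day 1 (-3.35 ± 0.72, adjusted p = 0.00879, edgeR), without overlap. Cxcl2 did not pass the test at day 7 (log2 difference -1.78 ± 0.65, adjusted p = 0.0902, edgeR). Cxcr2, the neutrophil receptor for these ligands, had 20.2, 9.78 and 9.23 CPM at day 7, against 98.0, 11.6 and 22.2 CPM at day 1. Its days overlapped and its difference of -1.86 (adjusted p = 0.0220, edgeR) was -0.43 (adjusted p = 0.613) without day 1 replicate 1. Of 14 neutrophil markers 2 fell (Mmp8 and Cxcr2), with a median of -0.59, and neither was called without that library.

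Of 20 acute-phase and mucosal defence genes, 14 fell at day 7 and none rose, with a median log2 difference of -1.13. In 13 of the 20, all 3 day 7 lungs lay below all 3 day 1 lungs, as they did in 6.62% of all genes. Lcn2, which codes for a protein that withholds iron from bacteria (chr2:32384633-32388252, minus strand), had 150.4, 185 and 220.0 CPM at day 7, against 2471, 441 and 1084 CPM at day 1. All day 7 lungs lay below all day 1 lungs, and the log2 difference was -2.94 ± 0.55 (adjusted p = 0.00326, edgeR). Saa3, a serum amyloid A gene expressed in inflamed tissue (chr7:46711998-46715676, minus strand), had 1.47, 5.55 and 26.1 CPM at day 7, against 354, 45.5 and 121.3 CPM at day 1 (-4.06 ± 1.03, adjusted p = 0.0177, edgeR). The libraries of each day varied widely but the days did not overlap. Orm1, for an acute-phase plasma protein, fell by a log2 difference of -4.72 ± 1.001 (adjusted p = 0.00782, edgeR), and its near-identical copy Orm2 and the near-identical pair Saa1 and Saa2 also fell, although reads may be split between such copies. C3, Hp, Cp, Pigr, Slpi, Steap4, Serpina3n and Serpina3m were the other members that fell. Without day 1 replicate 1, 1 of the 20 was called, Lcn2 (-2.10, adjusted p = 0.0350), while the median was -0.94, and Saa3 had a difference of -2.96 (adjusted p = 0.129).

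**Figure D2:**
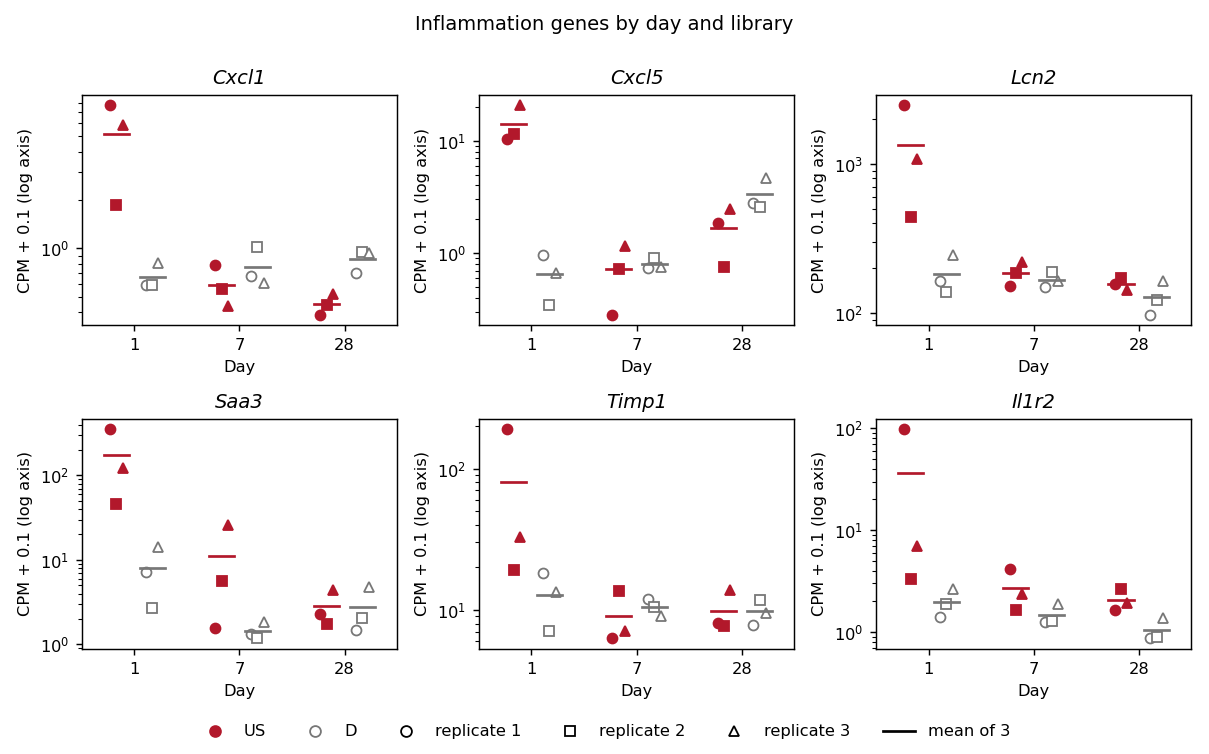
CPM + 0.1 on a log axis for 6 inflammation genes at days 1, 7 and 28, with US libraries as filled red symbols left of dextrose (D) libraries as open grey symbols, the symbol's shape giving the replicate and the bar the mean of 3. Cxcl1 and Cxcl5 were high in all 3 US day 1 lungs, while Timp1 (190.1 CPM) and Il1r2 (98.0 CPM) were far higher in day 1 replicate 1 than in the other day 1 lungs.

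Among 14 inflammatory CC chemokines and receptors, 5 fell at day 7 (Ccl2, Ccl7, Ccl17, Ccl20 and Ccr1) and none rose, with a median of -0.64. Ccl17, a chemokine for T helper cells, had 6.05, 8.87 and 3.94 CPM at day 7, against 23.4, 13.2 and 16.0 CPM at day 1, without overlap. Its log2 difference was -1.58 ± 0.29 (adjusted p = 0.00272, edgeR) and -1.27 without day 1 replicate 1 (adjusted p = 0.0263); it was the 1 member still called there. Ccl20, a chemokine for dendritic cells and lymphocytes, had 0.366, 0.973 and 2.186 CPM at day 7, against 4.51, 7.12 and 5.58 CPM at day 1, with every day 1 lung above every day 7 lung. Of 11 type 2 response and eosinophil genes 1 fell, against 4.13% of all genes. It was Retnla, which alternatively activated macrophages and epithelium make. Retnla had 44.7, 92.1 and 74.3 CPM at day 7, against 157, 789 and 239 CPM at day 1 (-2.55 ± 0.62, adjusted p = 0.0152, edgeR), and -2.91 without day 1 replicate 1 (adjusted p = 0.0184). It was not called without day 1 replicate 2, its highest lung, or without day 7 replicate 1. The dextrose lungs had 81.7, 81.6 and 93.0 CPM of Retnla at day 7, against 236, 79.3 and 474 CPM at day 1, with overlapping days.

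Another set of calls rested on day 1 replicate 1. Timp1, an inhibitor of matrix metalloproteases (chrX:20870166-20874735, plus strand), had 6.18, 13.5 and 6.997 CPM at day 7, against 190.1, 19.0 and 32.4 CPM at day 1, a difference of -3.30 ± 0.67 (adjusted p = 0.00574, edgeR). Leaving that library out gave -1.60 (adjusted p = 0.136). Il1r2, the decoy receptor for interleukin 1, had 4.03, 1.54 and 2.28 CPM at day 7, against 98.0, 3.22 and 6.94 CPM at day 1, and its difference of -3.88 (adjusted p = 0.00709, edgeR) was -0.999 (adjusted p = 0.400) without it. Of 14 glucocorticoid-induced genes 4 fell (Fkbp5, Mt2, Cdkn1a and Pdk4). Mt2, a metallothionein that binds zinc, had 5.86, 5.03 and 8.26 CPM at day 7, against 182, 5.41 and 6.64 CPM at day 1, so that a single lung was high. Its log2 difference of -3.46 (adjusted p = 0.00903, edgeR) was 0.04 (adjusted p = 0.974) without that lung. Fkbp5, a glucocorticoid receptor co-chaperone, showed the same single high lung, with 24.5, 17.3 and 44.2 CPM at day 7, against 245, 27.98 and 35.7 CPM at day 1. Of 10 smooth muscle contractile genes 5 fell (Acta2, Myh11, Cnn1, Actg2 and Myocd; median -0.48), and 4 of 14 alveolar type 1 markers (Pdpn, Krt7, Krt8 and Sprr1a). Without day 1 replicate 1, edgeR called 0 of the 10 and 0 of the 14, of which 5 and 2 had an unadjusted p under 0.05 and DESeq2 called 2 and 0. Cnn1, for the actin-binding protein calponin, had 11.6, 13.8 and 13.9 CPM at day 7, against 38.2, 22.7 and 16.1 CPM at day 1, without overlap, and a difference of -0.61 (adjusted p = 0.0594) without that lung.

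Chaperone genes fell at day 7 and did not rest on that library. Of 16 heat shock chaperone genes, 10 fell at day 7 against day 1 and none rose, with a median of -0.48. With day 1 replicate 1 left out 9 fell, and the median was -0.56; Dnajb1 was the member no longer called. Hspa8, the constitutive cytosolic HSP70 (chr9:40800984-40805200, plus strand), had 821, 941 and 914 CPM at day 7, against 1421, 1528 and 2356 CPM at day 1. The days did not overlap, the log2 difference was -1.06 ± 0.16 (adjusted p = 0.00181, edgeR), and it was -1.17 without day 1 replicate 1 (adjusted p = 0.000607). Hsph1, which helps HSP70 to exchange its nucleotide, had 37.3, 39.9 and 45.7 CPM at day 7, against 49.9, 85.2 and 172 CPM at day 1 (-1.39 ± 0.27, adjusted p = 0.00403, edgeR). Day 1 replicate 3 was the highest lung for both. Hspd1, the chaperonin of mitochondria, had 125.4, 139.9 and 130.8 CPM at day 7, against 173, 176 and 222 CPM at day 1 (-0.61 ± 0.11, adjusted p = 0.00250, edgeR), with no overlap. Its partner Hspe1, which shares a promoter region with it, had 32.9, 41.6 and 27.6 CPM at day 7, against 31.5, 40.8 and 50.2 CPM at day 1 and did not pass the test (-0.34 ± 0.17, adjusted p = 0.197, edgeR).

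The heat shock element (GAA, TTC and GAA with 2 bases between each) was searched on both strands. It was in a promoter of 4 of the 12 heat shock chaperone genes in the promoter table (Hsph1, Hspe1, Hspd1 and Chordc1). Of all 27025 genes in the table, 179 had it (0.662%). Hspe1 and Hspd1 are shown because they are read in opposite directions from 1 stretch of chromosome 1, which holds overlapping matches; Hspd1 passed the test and Hspe1 did not, and the difference between the pair was not tested. The Hspe1 stretch is chr1:55088019-55088111 on the plus strand and the Hspd1 stretch chr1:55088024-55088116 on the minus strand. In both, the capitals mark 1 of 2 matches, read on the opposite strand.
Hspe1: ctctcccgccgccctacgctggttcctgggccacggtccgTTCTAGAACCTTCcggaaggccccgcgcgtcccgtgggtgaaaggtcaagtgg
Hspd1: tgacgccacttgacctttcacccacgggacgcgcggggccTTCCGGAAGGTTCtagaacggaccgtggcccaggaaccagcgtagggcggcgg

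Endoplasmic reticulum chaperones, which fold secreted proteins, fell as well. A list of 16 such chaperones and related genes, Xbp1 and Herpud1 among them, was chosen after values had been seen. Of these, 13 fell at day 7 (median -0.50) and 13 without day 1 replicate 1 (median -0.67). That library was the lowest day 1 lung for every member but Herpud1 and Xbp1. Leaving it out therefore raised the day 1 mean of those members and is no check on their fall. Day 1 replicate 3 was the highest day 1 lung for every member but Herpud1, and the list was not counted without it. Of the members checked without that lung, Creld2 (adjusted p = 0.254, edgeR) and Xbp1 lost their call and Hspa5 kept it. Hspa5, the reticulum's HSP70 (chr2:34771970-34777547, plus strand), had 525, 545 and 509 CPM at day 7, against 677, 841 and 1353 CPM at day 1 (-0.94 ± 0.17, adjusted p = 0.00314, edgeR), without overlap. Sdf2l1, its co-factor, had 9.02, 9.15 and 6.71 CPM at day 7, against 11.9, 16.7 and 27.2 CPM at day 1 (-1.24 ± 0.24, adjusted p = 0.00403, edgeR), again without overlap. Calr, a lectin chaperone, had 465, 499 and 432 CPM at day 7, against 443, 684 and 864 CPM at day 1, where day 1 replicate 1 lay within the day 7 range. At day 28 against day 7, 2 of the 16 rose, Hspa5 and Calr, and Herpud1, which acts in protein degradation from the reticulum, fell. Hspa5 had 870.3, 839 and 788 CPM at day 28, against 525, 545 and 509 CPM at day 7 (0.70 ± 0.17, adjusted p = 0.0426, edgeR), and without day 28 replicate 3 the adjusted p was 0.0788. Calr had 722, 639.5 and 674 CPM at day 28, against 465, 499 and 432 CPM at day 7 (0.58 ± 0.14, adjusted p = 0.0398, edgeR). Every US day 28 lung lay above every US day 7 lung for both, and the same held in the dextrose lungs. Those had 849, 898 and 827 CPM of Hspa5 at day 28, against 458, 561 and 680 CPM at day 7. For Calr they had 679, 660 and 641 CPM at day 28, against 482, 510 and 629 CPM at day 7. Their Hspa5 levels at day 1, 724, 625 and 757 CPM, overlapped those of day 7, with means of 702 CPM at day 1 and 566 CPM at day 7. Dextrose means were lower at day 7 than at day 1 in every member of the list but Creld2 and Manf. That change within the dextrose lungs was not tested.

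**Figure D3:**
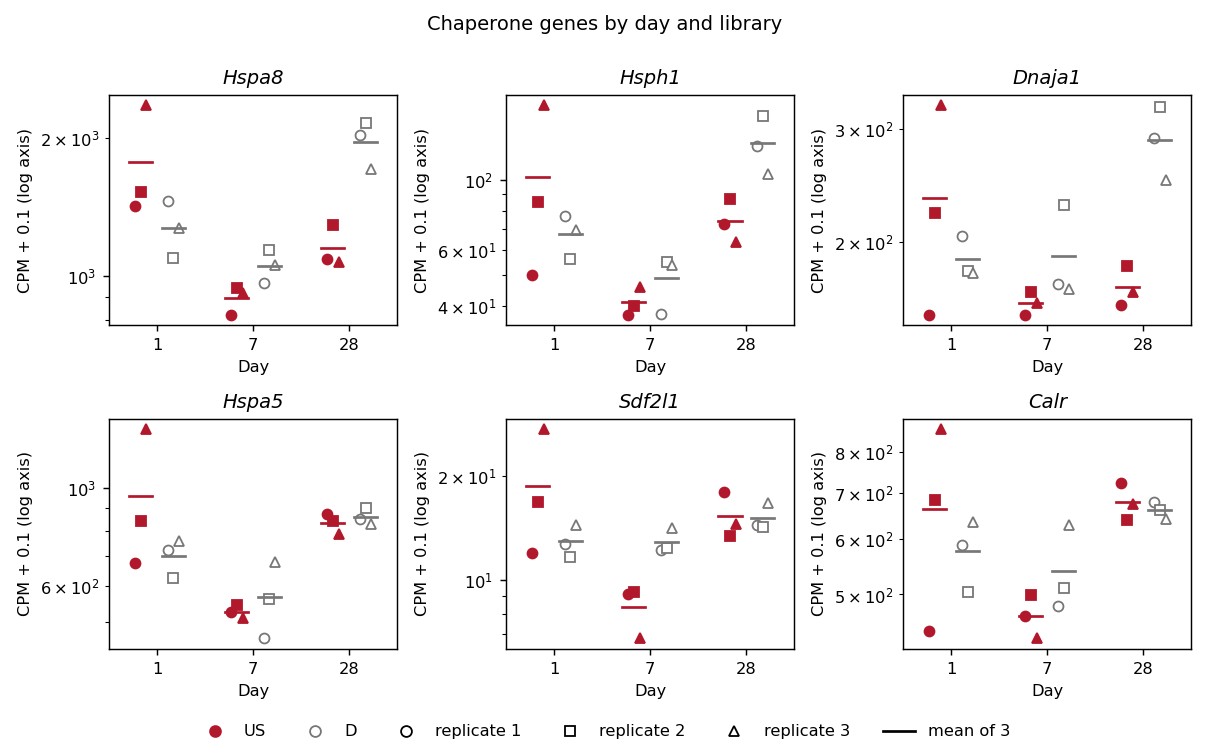
CPM + 0.1 on a log axis for 6 chaperone genes at days 1, 7 and 28, with US libraries as filled red symbols left of dextrose (D) libraries as open grey symbols, shapes for replicates and bars for the mean of 3. Hspa8 and Hspa5 were lowest at day 7 in the US lungs, and at day 28 the 3 US lungs had 1069 to 1291 CPM of Hspa8, below the 3 D lungs.

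Fewer named groups rose by day 7. Ctla4, an inhibitory receptor of activated and regulatory T cells (chr1:60887000-60915832, plus strand), had 8.01, 4.29 and 4.28 CPM at day 7, against 0.552, 1.25 and 1.11 CPM at day 1. The days did not overlap, and the log2 difference was 2.45 ± 0.46 (adjusted p = 0.00348, edgeR) and 2.18 without day 1 replicate 1 (adjusted p = 0.0283). Of 24 T cell and NK cell markers 3 rose (Cd8a, Trbc2 and Klrd1) and all 24 had positive differences, with a median of 0.70. Cd8a, of cytotoxic T cells, had 11.9, 12.6 and 12.9 CPM at day 7, against 2.76, 8.42 and 7.50 CPM at day 1 (0.94 ± 0.25, adjusted p = 0.0217, edgeR). Day 1 replicate 1 was the lowest lung for all 3, and without it edgeR called 0 of the 24, with 3 at an unadjusted p under 0.05 and 0 called by DESeq2. Cd8a then had a difference of 0.60 (adjusted p = 0.152). Of 16 MHC class II and dendritic cell genes 2 rose, Clec9a of cross-presenting dendritic cells and Siglech of plasmacytoid dendritic cells, and neither was called without that library. Clec9a had 8.47, 8.24 and 6.61 CPM at day 7, against 1.75, 4.47 and 3.57 CPM at day 1. None of 16 B cell markers was called by edgeR, although 7 had an unadjusted p under 0.05 and DESeq2 called 3; their median was 0.54.

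Other genes with large rises at day 7 were low in level. Gm16340 had 17.0, 12.1 and 9.52 CPM at day 7, against 1.98, 5.88 and 3.57 CPM at day 1 (1.69 ± 0.33, adjusted p = 0.00478, edgeR), and it stayed called without day 1 replicate 1 (adjusted p = 0.0407). Serpina9, Klra1, Gkn3, Atp6v1b1, Pla2g2d and A630023P12Rik rose by log2 differences between 1.68 and 2.17 at means of 5.31 CPM or less at day 7, and none of the 6 was called without that library. Tnni3, the troponin I of heart muscle, had 10.7, 12.8 and 5.93 CPM at day 7, against 2.76, 5.15 and 1.16 CPM at day 1 (1.62 ± 0.49, adjusted p = 0.0422, edgeR; 0.152 without day 1 replicate 1). The 12 heart muscle markers together summed to 142.6, 164.1 and 102.2 CPM at day 7, against 103.7, 99.4 and 47.8 CPM at day 1, and Tnni3 was the 1 called of the 11 tested. How much heart or vein muscle each tissue piece held was not tested. Etv5, a transcription factor of alveolar type 2 cells, had 271, 241 and 275 CPM at day 7, against 178, 181 and 189 CPM at day 1, without overlap (0.44 ± 0.11, adjusted p = 0.0193, edgeR; 0.0661 without day 1 replicate 1). Genes with which macrophages take up and digest particles passed no test. Of 22 particle macrophage and lysosome genes edgeR called 0 in any of the 3 day comparisons; 4, 6 and 1 had an unadjusted p under 0.05 in day 7 against day 1, day 28 against day 1 and day 28 against day 7, where DESeq2 called 1, 1 and 0.

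The second comparison set day 28 against day 1. The inflammation genes were still low. Of 9 neutrophil-attracting genes 5 fell at day 28 (Cxcl1, Cxcl2, Cxcl3, Cxcl5 and Cxcr2), and Ppbp, for the platelet basic protein, rose. The median was -1.96, against 0.01 over all genes, and Ppbp was not called without day 1 replicate 1 (adjusted p = 0.453). Cxcl1 had 0.286, 0.347 and 0.420 CPM at day 28, against 7.64, 1.77 and 5.74 CPM at day 1 (-3.87 ± 0.62, adjusted p = 0.00252, edgeR). It was called without day 1 replicate 1 (adjusted p = 0.0276) and without day 28 replicate 3 (adjusted p = 0.0191), but not without both (adjusted p = 0.0904). Cxcl5 had 1.77, 0.651 and 2.35 CPM at day 28, against 10.3, 11.4 and 20.4 CPM at day 1 (-3.18 ± 0.69, adjusted p = 0.0199, edgeR; 0.0634 without day 1 replicate 1). No lung of either gene overlapped between the days.

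Of 20 acute-phase genes 9 fell at day 28 against day 1 and none rose (median -1.01). Lcn2 had 156, 171 and 142 CPM at day 28, against 2471, 441 and 1084 CPM at day 1 (-3.15 ± 0.55, adjusted p = 0.00594, edgeR), and was the 1 member still called without day 28 replicate 3 (adjusted p = 0.0421). Without day 1 replicate 1 edgeR called 0 of the 20, with an adjusted p of 0.0723 for Lcn2, although 13 had an unadjusted p under 0.05 and DESeq2 called 2. Saa3 had 2.20, 1.65 and 4.33 CPM at day 28, against 354, 45.5 and 121.3 CPM at day 1 (-6.05 ± 1.17, adjusted p = 0.0119, edgeR; 0.0870 without day 1 replicate 1). Saa2 had no count in the 3 day 28 lungs and was at least 24.5-fold lower than its day 1 mean of 1.09 CPM, with a floor of 3 counts over the group. Mmp8, a neutrophil collagenase, had 4.82, 4.34 and 6.13 CPM at day 28, against 16.8, 7.49 and 12.4 CPM at day 1 (-1.31 ± 0.26, adjusted p = 0.0140, edgeR; 0.196 without day 1 replicate 1).

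Between day 28 and day 7 these groups showed no further call. EdgeR called 0 of 9 neutrophil-attracting genes, 0 of 20 acute-phase genes and 0 of 14 neutrophil markers, of which 0, 1 and 1 had an unadjusted p under 0.05, and DESeq2 called 0 of each. Lcn2 had 156, 171 and 142 CPM at day 28, against 150.4, 185 and 220.0 CPM at day 7, and the ranges overlapped. The dextrose lungs had 165, 138 and 245 CPM at day 1, 149.6, 189 and 163 CPM at day 7 and 96.9, 122.03 and 165 CPM at day 28.

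Cytotoxic lymphocyte genes were higher at day 28 than at day 1. Of 24 T cell and NK cell markers 5 rose (Ncr1, Klrb1c, Gzma, Gzmb and Prf1), none fell, and the median was 0.83. Gzma, a granzyme of cytotoxic granules, had 50.4, 44.7 and 139 CPM at day 28, against 4.74, 36.5 and 28.8 CPM at day 1 (1.72 ± 0.45, adjusted p = 0.0456, edgeR). Klrg1, a receptor of mature NK and effector T cells, had 2.86, 2.99 and 11.2 CPM at day 28, against 0.276, 1.3001 and 1.66 CPM at day 1 (2.38 ± 0.53, adjusted p = 0.0213, edgeR). For both, day 1 replicate 1 was the lowest lung and day 28 replicate 3 the highest. EdgeR called 0 of the 24 without day 1 replicate 1 and 0 without day 28 replicate 3, where 9 and 8 had an unadjusted p under 0.05 and DESeq2 called 0 and 0. The adjusted p of Klrg1 was then 0.232 and 0.195.

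Interferon-responsive genes rose at day 28 through 1 lung. Of 24 interferon-stimulated genes 4 rose against day 1 (Oas2, Ifi44, Gbp2 and Gbp3; median 0.82) and 2 against day 7 (Cxcl9 and Gbp2; median 0.57). In a list of 24 interferon-gamma-inducible GTPases and targets chosen after values had been seen, 16 rose against day 1 (median 1.86) and 4 against day 7. Gbp10, a guanylate-binding protein whose family has near-identical copies (chr5:105215699-105239533, minus strand), had 1.96, 1.26 and 41.6 CPM at day 28, against 1.19, 0.973 and 0.972 CPM at day 7 (3.87 ± 0.82, adjusted p = 0.0144, edgeR). Tgtp1, a T cell-specific GTPase with the near-identical copy Tgtp2, had 11.7, 11.6 and 121.01 CPM at day 28, against 7.97, 8.64 and 9.47 CPM at day 7 (2.51 ± 0.51, adjusted p = 0.0102, edgeR). Cxcl9, a chemokine for T cells that interferon gamma induces, had 1.48, 1.52 and 63.1 CPM at day 28, against 1.42, 1.83 and 1.99 CPM at day 7 (3.69 ± 0.88, adjusted p = 0.0345, edgeR). In all 3 genes the third day 28 lung was many times higher than the other two, and Ifng itself, from the list chosen afterwards, had 0.477, 0.477 and 5.12 CPM in them. Without day 28 replicate 3 the log2 differences against day 7 were 0.65, 0.47 and -0.18 (adjusted p = 0.754, 0.533 and 0.957, edgeR), and edgeR and DESeq2 called 0 members of either list in either comparison. In both lists 3 members had an unadjusted p under 0.05 against day 1 and 0 against day 7.

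**Figure D4:**
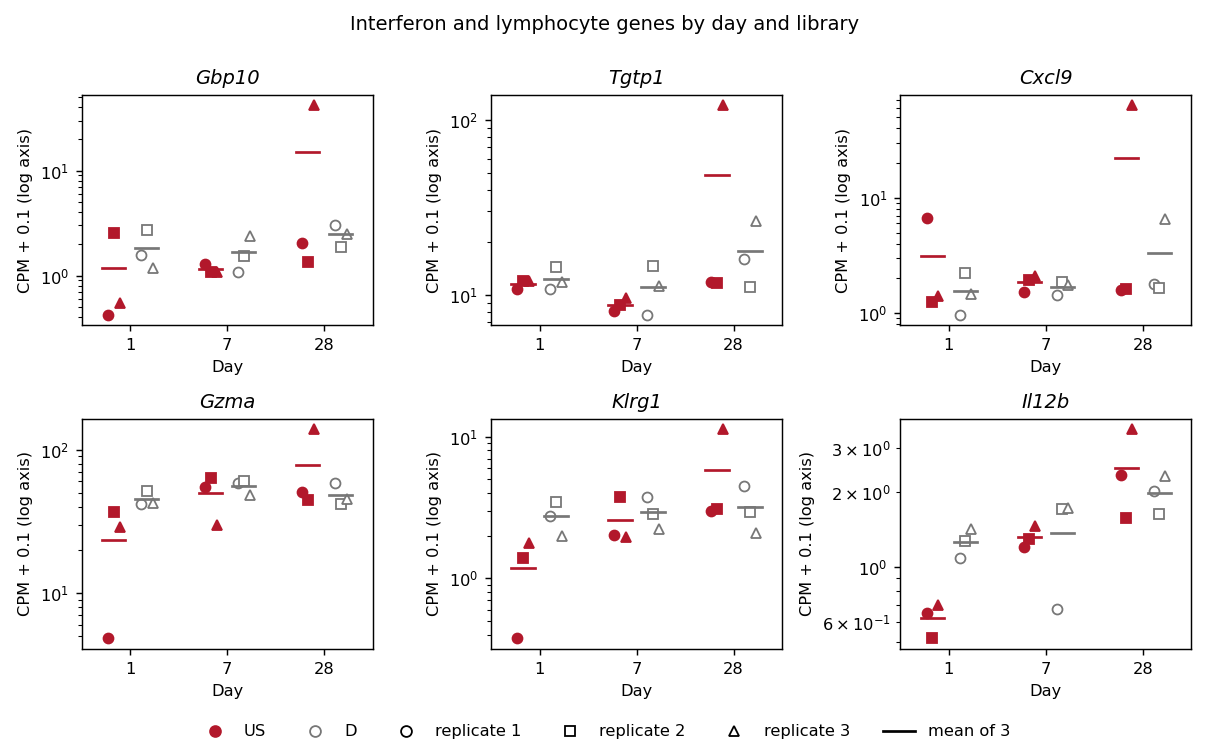
CPM + 0.1 on a log axis for 6 interferon and lymphocyte genes at days 1, 7 and 28, with US libraries as filled red symbols left of dextrose (D) libraries as open grey symbols, shapes for replicates and bars for the mean of 3. Gbp10, Tgtp1 and Cxcl9 were high in US day 28 replicate 3 (41.6, 121.01 and 63.1 CPM) and near the other days in the other 2 day 28 lungs, while Il12b was higher in all 3 day 28 lungs than in any day 1 lung.

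Il12b did not rest on that lung alone. It codes for the p40 subunit shared by interleukins 12 and 23 (chr11:44400063-44414033, plus strand) and had 2.24, 1.47 and 3.49 CPM at day 28, against 0.552, 0.416 and 0.604 CPM at day 1. All day 28 lungs lay above all day 1 lungs, with a log2 difference of 2.14 ± 0.36 (adjusted p = 0.00333, edgeR). The adjusted p was 0.0374 without day 1 replicate 1, 0.0384 without day 28 replicate 3 and 0.138 without both. The dextrose lungs had 1.91, 1.54 and 2.22 CPM at day 28, against 0.990, 1.17 and 1.33 CPM at day 1. Of 16 MHC class II and dendritic cell genes 3 rose (H2-Aa, H2-Eb1 and Clec9a; median 0.71). H2-Aa, an MHC class II chain that presents antigen, had 669, 568 and 949 CPM at day 28, against 219.7, 530.3 and 387 CPM at day 1 (0.91 ± 0.24, adjusted p = 0.0478, edgeR; 0.468 without day 1 replicate 1).

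Of 17 cholesterol synthesis and uptake genes 4 fell at day 28 against day 1, Fdps and Cyp51 among them, and none rose, with a median of -0.44. In 14 of the 17 all day 28 lungs lay below all day 1 lungs, as they did in 5.58% of all genes. Cyp51, a demethylase of the sterol pathway, had 37.5, 39.9 and 45.1 CPM at day 28, against 73.8, 59.8 and 68.0 CPM at day 1 (-0.76 ± 0.19, adjusted p = 0.0416, edgeR). Fdps, which makes farnesyl diphosphate, had 4.92, 5.51 and 4.83 CPM at day 28, against 11.0, 8.58 and 8.65 CPM at day 1 (-0.93 ± 0.24, adjusted p = 0.0416, edgeR). Neither was called without day 1 replicate 1 (adjusted p = 0.282 and 0.331) or without day 28 replicate 3 (adjusted p = 0.0941 and 0.139). Of 24 collagen and matrix genes 3 fell, among them Tnc and Timp1, both with their highest level in day 1 replicate 1 and neither called without it.

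The last comparison set day 28 against day 7. Genes of the circadian clock differed, the activators and the repressors in opposite directions; the hour of sampling cannot be told apart from the day. Of 6 genes in the clock activator list 2 rose at day 28 against day 7 (Arntl and Npas2, median 0.90). In 5 of the 6 all day 28 lungs lay above all day 7 lungs, as in 8.5% of all genes. That list also holds Nfil3, which is not among the activators named above. Of 10 clock repressors 7 fell (Per2, Per3, Cry2, Nr1d1, Nr1d2, Bhlhe40 and Bhlhe41) and Cry1 rose (median -1.34), and 9 had all day 28 lungs below all day 7 lungs, as in 10.5% of all genes. Of 9 clock output genes 3 fell (Dbp, Tef and Hlf; median -0.71). Without day 1 replicate 1 and day 28 replicate 3, 3 genes of the activator list rose, 7 repressors fell and 3 output genes fell.

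Npas2, an activator that pairs with ARNTL, had 3.86, 9.10 and 7.19 CPM at day 1, 1.51, 2.46 and 1.26 CPM at day 7 and 25.5, 28.2 and 22.3 CPM at day 28. No 2 days overlapped: day 7 was lowest and day 28 highest. Its log2 difference was -2.03 ± 0.33 for day 7 against day 1 (adjusted p = 0.00196), 1.89 ± 0.28 for day 28 against day 1 (adjusted p = 0.00210) and 3.91 ± 0.33 for day 28 against day 7 (adjusted p = 1.24e-08, edgeR throughout). Arntl, the core activator (chr7:113207465-113314122, plus strand), had 19.5, 31.6 and 32.4 CPM at day 1, 10.2, 12.1 and 6.71 CPM at day 7 and 54.7, 59.5 and 53.1 CPM at day 28, in the same order and without overlap (2.57 ± 0.28 for day 28 against day 7, adjusted p = 1.67e-06, edgeR). Clock, its usual partner, fell at day 7 against day 1 (-0.68 ± 0.17, adjusted p = 0.0154, edgeR; 0.0664 without day 1 replicate 1) and had 109.5, 129.97 and 123.2 CPM at day 28, against 89.5, 70.7 and 87.9 CPM at day 7.

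Several repressors and outputs took the opposite order in the US lungs, highest at day 7 and lowest at day 28. The tests against dextrose are given further below. Arntl, Dbp, Nr1d1 and Nr1d2 were not among the 5 largest or 5 smallest called differences from dextrose in any pair of days. Per3, a period gene (chr4:151003652-151044665, minus strand), had 49.6, 26.3 and 32.3 CPM at day 1, 92.2, 71.7 and 101.3 CPM at day 7 and 16.9, 16.7 and 16.3 CPM at day 28. No 2 days overlapped, and the difference was 1.21 ± 0.21 for day 7 against day 1 (adjusted p = 0.00250) and -2.38 ± 0.22 for day 28 against day 7 (adjusted p = 6.62e-08, edgeR). Nr1d2, which codes for REV-ERB beta, had 109.7, 105.05 and 115.2 CPM at day 1, 238, 188 and 273 CPM at day 7 and 37.7, 45.2 and 37.5 CPM at day 28, without overlap (-2.50 ± 0.22 for day 28 against day 7, adjusted p = 1.58e-08, edgeR). Dbp, a transcription factor among the clock outputs, had 17.2, 22.8 and 14.8 CPM at day 1, 114.9, 102.6 and 131.9 CPM at day 7 and 5.44, 3.90 and 4.70 CPM at day 28. Its day 28 lungs were 24.3-fold below its day 7 lungs (-4.60 ± 0.57, adjusted p = 1.31e-05, edgeR), without overlap. Tef, a relative of Dbp (chr15:81802421-81826861, plus strand), had 359, 174 and 188 CPM at day 1, 389, 305 and 446 CPM at day 7 and 117.7, 117.7 and 111.7 CPM at day 28. Day 1 replicate 1 lay within the day 7 range, and the difference was 0.58 ± 0.17 for day 7 against day 1 (adjusted p = 0.0417), 1.03 without that lung (adjusted p = 0.000119), and -1.68 ± 0.18 for day 28 against day 7 (adjusted p = 9.92e-07, edgeR). For day 7 against day 1 Tef was not called without day 1 replicate 2 or 3 or day 7 replicate 1 or 3, nor by limma on log2(TPM + 1) (adjusted p = 0.972). Limma did not call Tef for day 28 against day 7 either (adjusted p = 0.303). Cry1, a repressor whose peak comes late in the clock's cycle, went with the activators, with 30.4, 26.2 and 27.4 CPM at day 28, against 13.3, 12.1 and 18.1 CPM at day 7 (0.99 ± 0.19, adjusted p = 0.00535, edgeR), without overlap.

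**Figure D5:**
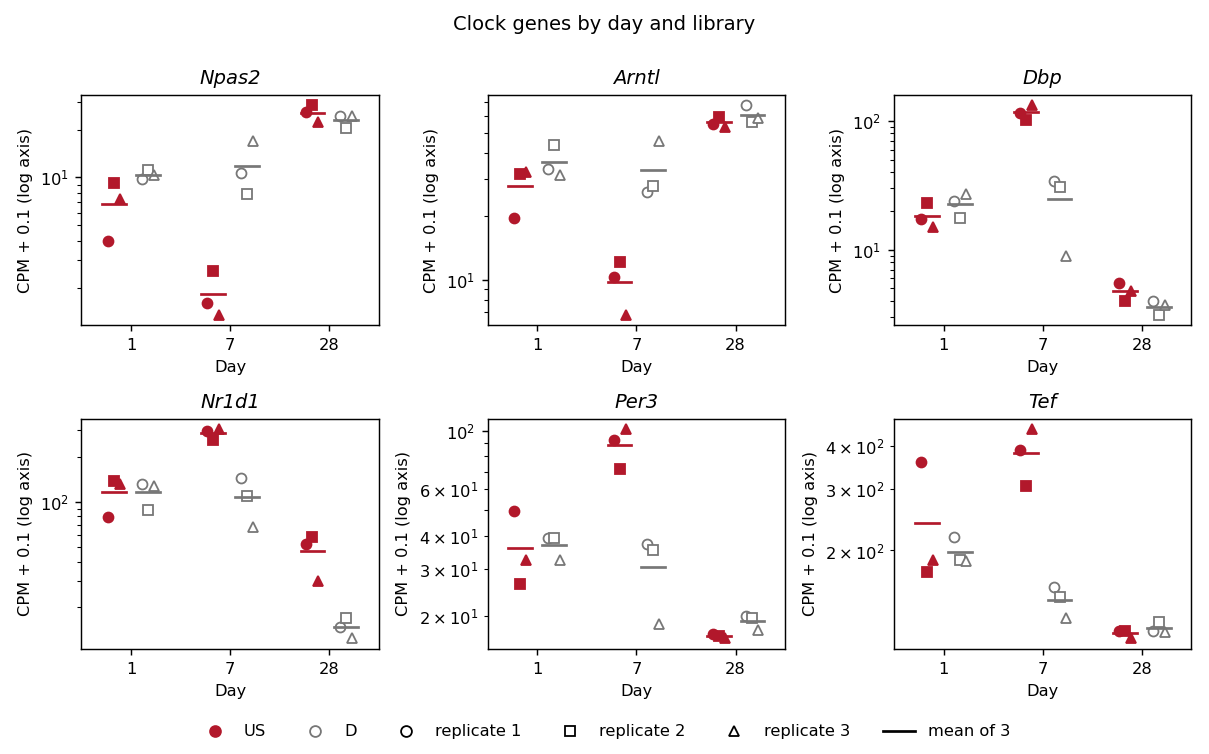
CPM + 0.1 on a log axis for 6 clock genes at days 1, 7 and 28, with US libraries as filled red symbols left of dextrose (D) libraries as open grey symbols, shapes for replicates and bars for the mean of 3. In the US lungs Npas2 and Arntl were lowest and Dbp, Nr1d1, Per3 and Tef highest at day 7, with Dbp at 3.90 to 5.44 CPM on day 28 and 102.6 to 131.9 CPM on day 7.

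The motifs through which clock proteins are known to act were searched on both strands of the promoters. The E-box CACGTG is bound by ARNTL with CLOCK or NPAS2. It was in 4 of 8 repressors (Per1, Cry1, Ciart and Bhlhe41) and 2 of 8 output genes (Tef and Slc41a3). It was in 0 of 5 genes of the activator list and in 2187 of all 27025 genes with a promoter in the table (8.09%). The ROR element ANTAGGTCA, bound by REV-ERB and ROR proteins, was in 2 of 5 genes of the activator list (Arntl and Nfil3). It was in 0 of 8 repressors, 0 of 8 output genes and 191 of all genes in the table (0.707%). The D-box TTANGTAA, bound by DBP, TEF and HLF, was in Per3 alone of the 8 repressors and in 735 of all genes in the table (2.72%). Per2 and Bhlhe40 are not in the table. The stretches below, in GRCm38.p6, are shown because Tef, Bhlhe41 and Per3 fell and Cry1 rose at day 28 against day 7, although Tef, Bhlhe41 and Cry1 carry the same motif, and because Nfil3, an activator-list gene with 23.7, 26.2 and 16.9 CPM at day 28 and 11.999, 8.01 and 9.33 CPM at day 7, carries the other. Capitals mark the E-box in Tef (chr15:81802506-81802591, plus strand), Cry1 (chr10:85185069-85185154, minus strand) and Bhlhe41 (chr6:145865528-145865613, minus strand), the D-box in Per3 (chr4:151044823-151044910, minus strand, 1 of 2 matches) and the ROR element, read on the opposite strand, in Nfil3 (chr13:52981040-52981091, minus strand).
Tef: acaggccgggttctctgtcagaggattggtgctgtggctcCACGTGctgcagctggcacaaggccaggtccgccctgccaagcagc
Cry1: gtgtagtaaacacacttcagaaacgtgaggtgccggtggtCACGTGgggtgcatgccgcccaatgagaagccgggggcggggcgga
Bhlhe41: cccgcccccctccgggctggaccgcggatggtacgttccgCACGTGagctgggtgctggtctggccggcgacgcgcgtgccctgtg
Per3: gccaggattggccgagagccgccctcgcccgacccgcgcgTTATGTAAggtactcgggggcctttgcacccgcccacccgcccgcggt
Nfil3: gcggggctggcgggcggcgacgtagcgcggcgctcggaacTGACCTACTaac

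Outside the clock, Spon2, which codes for a secreted matrix protein (chr5:33198184-33218455, minus strand), had 118.2, 101.2 and 76.0 CPM at day 28, against 19.5, 35.4 and 9.13 CPM at day 7. The days did not overlap, with a log2 difference of 2.26 ± 0.38 (adjusted p = 0.00117, edgeR; 0.00171 without day 28 replicate 3). Avpr1a, a vasopressin receptor (chr10:122448499-122453453, plus strand), had 3.34, 3.43 and 3.44 CPM at day 28, against 0.504, 0.572 and 0.534 CPM at day 7 (2.69 ± 0.33, adjusted p = 1.28e-05, edgeR). Adm, for the vasodilator adrenomedullin, had 31.1, 27.9 and 19.5 CPM at day 28, against 9.25, 8.24 and 4.62 CPM at day 7 (1.87 ± 0.37, adjusted p = 0.00753, edgeR). All 3 had every day 28 lung above every day 7 lung. Rasl11a, Calcb and Fam124b also rose by log2 differences between 1.61 and 1.73, of which Calcb and Fam124b were not called without day 28 replicate 3 (adjusted p = 0.0519 and 0.0684). Ccna1, AU040972, Fabp3 and Tex11 fell, with log2 differences of -1.91, -1.65, -1.58 and -1.57. Tex11 had 2.34, 4.03 and 2.65 CPM at day 28, against 8.43, 8.64 and 10.4 CPM at day 7. Fabp3 codes for a fatty acid-binding protein that heart muscle makes in quantity, and the 12 heart muscle markers summed to 70.0, 45.7 and 97.3 CPM at day 28, against 142.6, 164.1 and 102.2 CPM at day 7; their part in Fabp3 was not tested. None of the 11 tested was called by edgeR, 6 had an unadjusted p under 0.05, and DESeq2 called 0. Cell division genes had positive differences in 25 of 25, with 14 whose day 28 lungs all lay above the day 7 lungs, as in 8.5% of all genes, and a median of 0.73; edgeR and DESeq2 called 0 of them, and 15 had an unadjusted p under 0.05, of which 1 did without day 28 replicate 3.

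Whether the change over days in the US lungs differed from that in the dextrose lungs was tested as an interaction. The difference between days 7 and 1 differed in 23 genes (0.136% of those tested), higher in US lungs in 7 (0.0414%) and lower in 16 (0.0947%). Between days 28 and 1 it differed in 8 (0.0473%), higher in 3 (0.0177%) and lower in 5 (0.0296%), and between days 28 and 7 in 23 (0.136%), higher in 15 (0.0887%) and lower in 8 (0.0473%). Npas2 had the smallest adjusted p of these. The US lungs had 25.5, 28.2 and 22.3 CPM at day 28, against 1.51, 2.46 and 1.26 CPM at day 7, while the dextrose lungs had 24.2, 20.4 and 24.2 CPM at day 28, against 10.5, 7.80 and 16.8 CPM at day 7. The US change was larger by 2.94 ± 0.42 on the log2 scale (adjusted p = 0.00168, edgeR). Per2, a period gene, had 13.4, 15.9 and 11.1 CPM at day 28, against 51.8, 31.8 and 73.7 CPM at day 7, in US lungs, and 21.3, 23.3 and 17.9 CPM at day 28, against 12.4, 12.1 and 10.5 CPM at day 7, in dextrose lungs. All US lungs of day 28 lay below those of day 7 and all dextrose lungs of day 28 above those of day 7, with an interaction of -2.76 ± 0.48 (adjusted p = 0.0126, edgeR; 0.0818 without US day 7 replicate 3, its highest lung). Per3, Hlf and Tef had interactions of -1.69, -1.56 and -1.41, each with a lower difference of day 28 minus day 7 in the US lungs. Without US day 7 replicate 3 none of the 3 was called (adjusted p = 0.0818 for each), and limma did not call Hlf or Tef (adjusted p = 0.113 and 0.350). Npas2 stayed called with each of the 18 US and dextrose libraries left out in turn, though its adjusted p was 0.0545 with limma. Dextrose day 7 replicate 3 stood apart in Dbp, which is not among the interaction genes named here. It had 8.90 CPM, against 34.3 and 30.8 CPM in the other dextrose day 7 lungs. Leaving that library out gave 143 genes for days 28 and 7 and 3 for days 7 and 1. For days 28 and 7 the count was 1 without US day 7 replicate 3, 11 without US day 7 replicate 1 and 95 without US day 7 replicate 2. It was 8, 7 or 15 without US day 28 replicate 1, 2 or 3, 39 without US day 1 replicate 1, 7 without dextrose day 7 replicate 1 or day 28 replicate 2, and 15 without dextrose day 1 replicate 2.

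Cxcl5 had 1.77, 0.651 and 2.35 CPM at day 28, against 10.3, 11.4 and 20.4 CPM at day 1, in US lungs, while the dextrose lungs had 2.68, 2.45 and 4.59 CPM at day 28, against 0.867, 0.246 and 0.561 CPM at day 1. The interaction was -5.72 ± 1.06 (adjusted p = 0.0371, edgeR), and 0.0556 was its adjusted p without US day 28 replicate 3. It was called without 9 of the 18 US and dextrose libraries in turn. Hspa8 had 1090, 1291 and 1069 CPM at day 28, against 1421, 1528 and 2356 CPM at day 1, in US lungs, and 2035, 2154 and 1707 CPM at day 28, against 1457, 1095 and 1270 CPM at day 1, in dextrose lungs. Hspa8 fell in the US lungs (-0.66 ± 0.16, adjusted p = 0.0399, edgeR; 0.0695 without day 1 replicate 1 and 0.143 without day 28 replicate 3), while all 3 dextrose lungs of day 28 lay above those of day 1, with an interaction of -1.29 ± 0.23 (adjusted p = 0.0264, edgeR; 0.0571 without US day 28 replicate 3), and it was called without 12 of the 18 libraries in turn. Dnajb1, a co-chaperone of HSP70, had 28.3, 32.8 and 34.7 CPM at day 28, against 42.8, 44.6 and 48.4 CPM at day 1, in US lungs, and 64.6, 76.3 and 60.6 CPM at day 28, against 46.2, 38.0 and 36.8 CPM at day 1, in dextrose lungs. Its interaction of -1.29 ± 0.20 (adjusted p = 0.00566, edgeR) was called without US day 1 replicate 1, without US day 28 replicate 3 and without both (adjusted p = 0.00724, 0.0110 and 0.0126), but not without dextrose day 1 replicate 2 (adjusted p = 0.0520). These counts depended on single libraries: without US day 7 replicate 1 or 3, or dextrose day 1 replicate 1 or 2, edgeR called 0 genes for days 7 and 1, with 1851, 2148, 2050 and 1889 genes at an unadjusted p under 0.05, and without dextrose day 1 replicate 2 it called 0 for days 28 and 1 (1266 genes). The highest counts were 44 for days 7 and 1, without US day 7 replicate 2, and 92 for days 28 and 1, without US day 1 replicate 2. The other libraries that moved the count by over 1.5 times gave 1 to 36 for days 7 and 1 and 1 to 4 for days 28 and 1. DESeq2 on all 36 libraries called 211, 70 and 208 genes.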

How the data were processed

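RNA of 36 lung samples was sequenced as stranded poly(A) libraries (TruSeq, HiSeq2500), per the labels' protocols. The submitters' processing notes name bcl2fastq 2.19.1.403, CASAVA, STAR 2.5.1b, featureCounts 1.5.1 and StringTie 1.3.3 and the builds GRCh37 and GRCm38; the sources used here do not name the annotation release or the strand setting. The authors deposited read counts per gene, used as they stand, TPM values, used in 1 alternative, and FPKM and coverage values from the same StringTie tables, not used here. EdgeR 4.0.16 (R 4.3.3) fitted the 36 libraries as 12 groups of 3 after filterByExpr and TMM scaling (quasi-likelihood test, Benjamini-Hochberg adjustment at 0.05 over 16903 of 46078 genes), so that the spread was estimated from all groups. CPM are counts scaled to the library total. DESeq2 1.42.0, limma 3.58.1 on log2(TPM + 1), RLE scaling, no low-count filter, a replicate block and libraries left out were the alternatives. The fit was tested on simulated data.

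The members and the gene lists were chosen with earlier results of these data known. Genes were named by rule: in each day comparison the 10 largest and 10 smallest log2 differences among called genes with at least 1 CPM on average and no overlap between days, up to 3 called members of each list by smallest p, and, in lists without a call, up to 2 of the most abundant members. For the interactions, the 5 largest and 5 smallest called differences were taken. Members of lists said to be chosen after values had been seen, and Hspe1, Nfil3, Hsph1 and Cry1, stand outside the rule. Chi-square statistics per degree of freedom between replicates of a group were 7.86 to 64.9, so no pair was a repeat deposit. The SE given after ± comes from the quasi-likelihood fit and so includes the spread between libraries. Values of some list members are not reported here.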

Additional observations from a re-analysis of the deposited data

Results flagged for a closer look

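In these genes the change over days differed between US lungs and dextrose lungs by the interaction test itself (edgeR's quasi-likelihood test, Benjamini-Hochberg adjustment over all genes). Values are log2 differences of US minus D, with 3 libraries in each of the groups compared, and their causes were not tested.

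Between days 7 and 1 the difference was higher in US lungs for Slco5a1 (1.85), Htra4 (1.82), Per3 (1.48), Hlf (1.36) and Fam214a (0.85), with adjusted p between 0.0228 and 0.0450. It was lower in US lungs for Gm13889 (-2.58), the stress-induced growth regulator Gadd45g (-2.27), Npas2 (-2.22), Avpr1a (-2.17) and the keratinocyte protein gene Sfn (-1.95), with adjusted p between 0.0321 and 0.0457. Gadd45g had 6.64, 5.84 and 7.68 CPM at day 7, against 25.8, 10.8 and 12.1 CPM at day 1, in US lungs, and 14.9, 10.1 and 12.1 CPM at day 7, against 4.58, 6.51 and 8.67 CPM at day 1, in dextrose lungs.

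Between days 28 and 1 the difference was higher in US lungs for 0610040B10Rik (2.27), Adck3 (1.14) and Accs (1.06). It was lower for Cxcl5 (-5.72), the phosphatase gene Dusp8 (-1.57), Hspa8 (-1.29) and Dnajb1 (-1.29). Adjusted p lay between 0.00566 and 0.0444. Dusp8 had 19.0, 22.2 and 16.9 CPM at day 28, against 39.6, 28.8 and 33.9 CPM at day 1, in US lungs, and 45.5, 43.9 and 36.7 CPM at day 28, against 27.9, 24.9 and 24.6 CPM at day 1, in dextrose lungs.

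Between days 28 and 7 the difference was higher in US lungs for Npas2 (2.94), Avpr1a (2.42), Gm13889 (2.38), Ccdc184 (2.02) and Foxs1 (1.95). It was lower for Per2 (-2.76), Per3 (-1.69), Hlf (-1.56), Tef (-1.41) and the dynein gene Dnah10 (-1.04). Adjusted p lay between 0.00168 and 0.0386. Avpr1a had 3.34, 3.43 and 3.44 CPM at day 28, against 0.504, 0.572 and 0.534 CPM at day 7, in US lungs, and 4.16, 1.82 and 4.002 CPM at day 28, against 2.43, 2.21 and 3.64 CPM at day 7, in dextrose lungs.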

How the results depend on the processing

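Counts of called genes are given here as a percent of the genes tested, in the order day 7 against day 1, day 28 against day 1, day 28 against day 7, any change, and the interactions with dextrose for days 7 and 1, 28 and 1, and 28 and 7; with all libraries they were 7.18, 1.75, 0.887, 6.21, 0.136, 0.0473 and 0.136. RLE scaling left each count within 1.5 times (7.17, 2.07, 0.935, 6.24, 0.142, 0.0592 and 0.13). DESeq2 gave 4.17, 1.78 and 10.8 for day 28 against days 1 and 7 and for any change, where 705, 301 and 1821 genes were called, and 1.25, 0.414 and 1.23 for the interactions. Limma on log2(TPM + 1) gave 2.27, 0.134, 0.461, 1.8, 0.0896, 0.0256 and 0.0128. Fits on only the groups compared, with fewer libraries to estimate the spread, gave 0.205, 0.0124, 0.124 and 0.168, and 0.17, 0.0303 and 0.649 for the interactions. With no filter on low counts, over more genes, the interactions gave 0.166, 0.0408 and 0.275, and without the deepest library 0.0699, 0.0233 and 0.122. Without both US day 1 replicate 1 and US day 28 replicate 3, a choice made after seeing the data, the values were 1.34, 0, 0.851, 1.5, 0.0933, 0.035 and 0.146. Leaving out 1 library gave 1.47 to 13.9, 0.0758 to 7.15, 0.431 to 1.26, 2.17 to 12.7, 0 to 0.256, 0 to 0.536 and 0.00582 to 0.833. The cause was not tested.

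With the replicate number as a block the percents were 5.98, 0.645, 0.722, 4.83, 0.0592, 0.0237 and 0.0769. Deviations of the 9 pairs with the same number correlated at -0.331 to 0.487, with 2 over 0.1. Those of the 18 pairs with other numbers correlated at -0.44 to 0.349, with 7 over 0.1. With 3 libraries per group, these values cannot decide whether the numbers pair samples.

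Among named genes, the log2 difference of Mt2 for day 7 against day 1 lay between -4.00025 and 0.038 with 1 library left out, and was 0.035 without both libraries named above. Cxcl9 for day 28 against day 7 lay between -0.18 and 4.23 and was -0.18 without both. Gbp2 for day 28 against day 1 lay between 0.17 and 1.73 and was -0.036 without both. No other named gene turned its direction in the settings run. Saa2 had 0 counts at day 28, and setting it to its bound left the acute-phase median at -1.01.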

Other observations

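Genes that build ribosomes were lower at day 7. In a list of 24 ribosome biogenesis genes chosen after values had been seen, 12 fell at day 7 against day 1 (median -0.40) and 6 at day 28 against day 1, of which 0 were called without day 1 replicate 1, where 9 had an unadjusted p under 0.05 and DESeq2 called 2, and 2 were called without day 28 replicate 3. Bysl, needed to assemble the small ribosomal subunit, had 13.8, 17.1 and 13.7 CPM at day 7, against 25.5, 22.2 and 22.8 CPM at day 1 (-0.74 ± 0.13, adjusted p = 0.00250, edgeR), without overlap. It was the 1 member called for day 7 without day 1 replicate 1, where the median was -0.23. EdgeR and DESeq2 called 0 of 27 genes for the ribosomal proteins themselves at day 7 against day 1, where 4 had an unadjusted p under 0.05. In a list of 16 NF-kB and STAT3 factors and feedback genes, also chosen afterwards, 3 fell at day 7 and 1 without day 1 replicate 1, Nfkb2, an NF-kB subunit, which had 37.1, 32.6 and 32.9 CPM at day 7, against 58.0, 46.2 and 51.0 CPM at day 1 (-0.68 ± 0.12, adjusted p = 0.00250, edgeR).

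Of 16 Nrf2 antioxidant genes 3 fell at day 7 against day 1 (Hmox1, Slc7a11 and Mt2; median -0.33), and none of these was called without day 1 replicate 1. Hmox1, which breaks down haem, had 43.1, 48.0 and 52.7 CPM at day 7, against 73.2, 58.5 and 57.6 CPM at day 1. Slc7a11, the cystine importer, had 1.83, 1.89 and 3.64 CPM at day 7, against 11.2, 3.48 and 7.95 CPM at day 1. Of 18 ciliated cell genes Cfap43, for a protein of the ciliary axoneme, rose at day 7, as did 3.05% of all genes. Cfap43 had 95.4, 101.6 and 106.3 CPM at day 7, against 81.1, 72.7 and 67.6 CPM at day 1. Its difference was 0.37 ± 0.09 (adjusted p = 0.0116, edgeR), and the adjusted p was 0.00572 without day 1 replicate 1. Of 22 endothelial markers 2 fell at day 7, Vwf and Nos3, as did 4.13% of all genes. Vwf, the von Willebrand factor gene, had 329, 316 and 351 CPM at day 7, against 520.1, 479 and 451 CPM at day 1, without overlap (adjusted p = 0.0484, edgeR; 0.200 without day 1 replicate 1).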
